A study of Mus musculus with 6 samples.

Results

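Sphingosine 1-phosphate (S1P) genes were examined in olfactory bulbs (OBs) of aged Tg2576 mice, a line that carries human amyloid precursor protein with the Swedish mutation. The group held 10 genes, namely the kinases Sphk1 and Sphk2, the phosphatases Sgpp1 and Sgpp2, the lyase Sgpl1, the exporter Spns2 and the receptors S1pr1, S1pr2, S1pr3 and S1pr5. Members were chosen by gene symbol among the 22206 probe sets tested, with the probe set of highest mean level for each gene, and each of the 10 genes had 1 probe set. The group itself was picked by someone who knew earlier results of these arrays, in which Sgpp2 differed between genotypes, so the values of Sgpp2 are a description and support nothing further. The arrays compared OBs of 3 female Tg2576 mice with those of 3 wild-type (WT) littermates, all of 18 months. Each mouse had an Affymetrix Clarion S array of its own. The paper gives female sex for the transgenic mice and does not state that of the WT mice. The transgene is driven by the hamster prion promoter, and the labels give no other allele and no treatment.

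S1P is a lipid made from sphingosine, the backbone of ceramide and of other sphingolipids. Kinases add the phosphate, phosphatases take it off again, and a lyase cleaves the molecule for good. Exported S1P acts on G protein-coupled receptors, and in the nervous system this signal is known for its roles in the barrier of blood vessels, in astrocytes and in oligodendrocytes.

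Values are log2 expression levels that the authors summarised and normalized by RMA (robust multi-array average), so a difference of 1 is a doubling. The medians of the 6 arrays ranged from 8.18 to 8.22, and the correlation of any pair of arrays over probe sets (Pearson's r) from 0.992 to 0.995. All 10 genes lay above the median of the negative control probe sets, between 6.78 and 6.91, on all 6 arrays. The comparison used limma, which fits every probe set and moderates its variance towards that of the others. A gene is called higher when its fold is over 1.3 and lower when it is under 0.7, in both cases with an unadjusted p under 0.01. Differences are given as Tg2576 minus WT with a 95% confidence interval. App differed by -0.023 (-0.20 to 0.15), and it cannot check the genotype, since the sources do not say if its probes read the human sequence. Of 12 interneuron markers of the bulb, 11 lay above the negative controls on all arrays, and so did 6 of 7 markers of mitral and tufted cells.

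Among the 10 genes, Sgpp2 was higher in Tg2576 OBs and the other 9 did not pass the thresholds. Over all probe sets, 0.698% were called higher and 0.0991% lower. These rates cannot be compared directly, since the lower fold threshold is the stricter on the log2 scale (-0.51 against 0.38). With a lower fold threshold of 0.769, 155 probe sets were called higher and 75 lower. With the p threshold alone, 280 were higher and 188 lower. Without a fold threshold and with p under 0.05, 2 members passed, Sgpp2 and S1pr3, both higher, against 8.54% of all probe sets in either direction. The arrays of the genotypes did not overlap for 2 members, Sgpp2 and S1pr1, against 14.1% of all probe sets. The median difference of the 10 genes was 0.081, with 7 of 10 above 0, beside -0.0049 over all probe sets. The median SD within a genotype was 0.13 for the 10 genes and 0.12 over all probe sets.

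**Figure D1:**
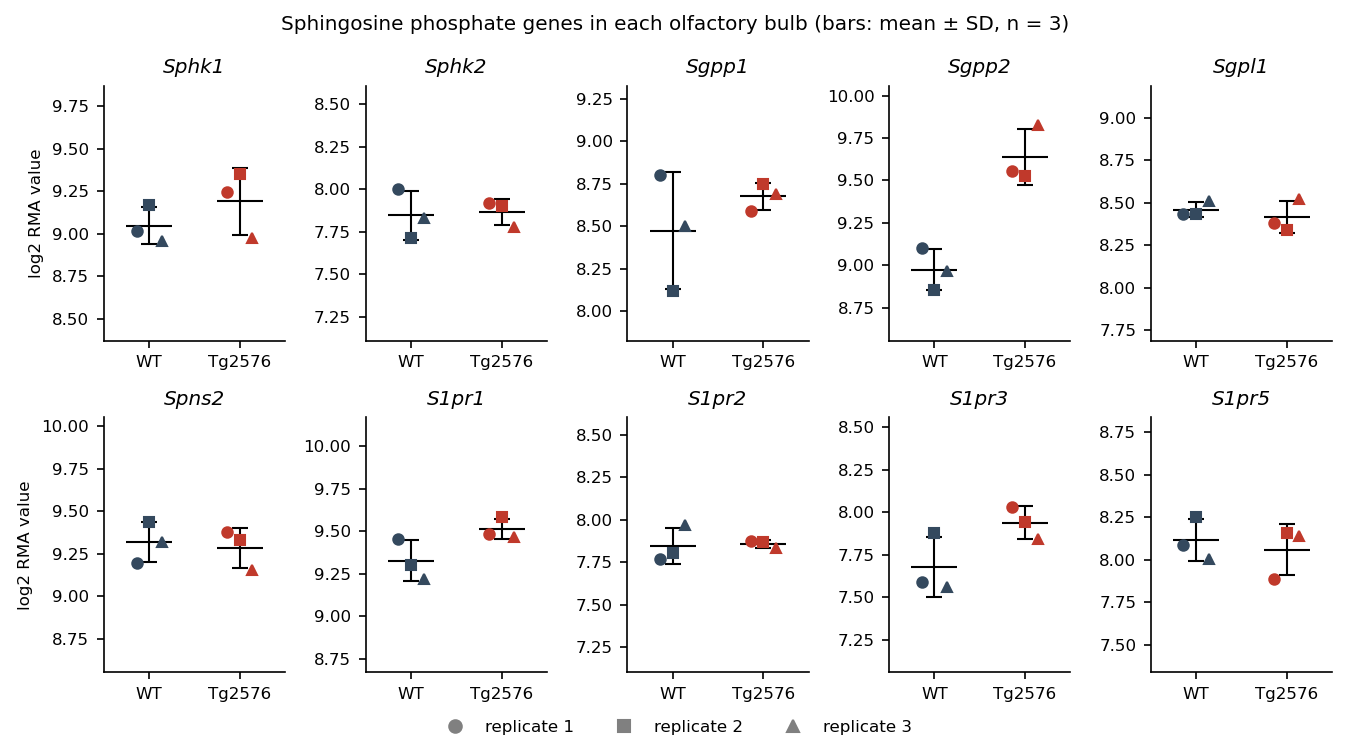
Log2 RMA value of each of the 10 genes (vertical axis, the same span in every panel) in 3 WT and 3 Tg2576 OBs. Points are arrays, shaped by replicate number, and bars are the mean ± SD (n = 3). The 3 Tg2576 arrays lay above the 3 WT arrays for Sgpp2 (9.53 to 9.82 against 8.86 to 9.10) and for S1pr1 (9.47 to 9.58 against 9.22 to 9.46), and the genotypes overlapped for the other 8 genes.

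Sgpp2 encodes an S1P phosphatase of the endoplasmic reticulum, which turns S1P back into sphingosine. It was at 9.55, 9.53 and 9.82 in Tg2576 replicates 1 to 3 and at 9.10, 8.86 and 8.97 in WT replicates 1 to 3. All Tg2576 arrays lay above all WT arrays, and the highest value was that of Tg2576 replicate 3. The means were 9.64 ± 0.16 and 8.98 ± 0.12 (SD, n = 3 each). The log2 difference was 0.66 (SE 0.11, interval 0.42 to 0.90), or a fold of 1.58. By its unadjusted p it stood at rank 12 of 22206 probe sets. After Benjamini-Hochberg adjustment over all of them limma gave an adjusted p = 0.332, which was the smallest of any probe set and was shared by 101 of them. With limma-trend and robust moderation the adjusted p was 0.041, and over all alternatives it ranged from 0.041 to 0.9998, the latter with a single Tg2576 array. The difference stayed between 0.56 and 0.72 when any single array was left out.

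Sgpp1 encodes the other S1P phosphatase, also of the endoplasmic reticulum. It was at 8.59, 8.75 and 8.69 in Tg2576 and at 8.80, 8.12 and 8.50 in WT replicates 1 to 3. WT replicate 1 was the highest of the 6 arrays and WT replicate 2 the lowest, so the genotypes overlapped. The difference was 0.20 (SE 0.16, interval -0.15 to 0.56, limma adjusted p = 0.781), and without WT replicate 2 it was 0.024. Whether the differences of Sgpp1 and Sgpp2 differ from each other was not tested, and their intervals overlap.

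The stretch before the start of each phosphatase gene is shown because these related genes carry the largest and the third largest difference of the group. RefSeq (GRCm38.p6) places the 250 bases before Sgpp2 at chr1:78310096-78310345 on the plus strand, and those before Sgpp1 at chr12:75735730-75735979 on the minus strand. Capitals mark the core of the cAMP response element (TGACG) and the GC box (GGGCGG), searched on both strands.
Sgpp2: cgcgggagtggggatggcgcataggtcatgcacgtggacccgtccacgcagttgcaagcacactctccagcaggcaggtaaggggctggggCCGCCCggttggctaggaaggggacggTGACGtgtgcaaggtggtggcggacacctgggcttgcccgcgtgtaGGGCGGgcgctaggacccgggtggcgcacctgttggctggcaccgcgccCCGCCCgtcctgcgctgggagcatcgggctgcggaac
Sgpp1: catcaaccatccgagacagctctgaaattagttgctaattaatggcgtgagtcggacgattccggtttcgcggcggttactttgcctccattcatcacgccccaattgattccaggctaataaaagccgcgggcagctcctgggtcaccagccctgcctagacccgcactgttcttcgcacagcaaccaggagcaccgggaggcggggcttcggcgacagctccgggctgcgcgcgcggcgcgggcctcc
The window of Sgpp2 held 1 such core at position -132 from the gene start and 3 GC boxes at -159, -86 and -37, while that of Sgpp1 held neither motif. Over 32851 such windows of all genes, which include several windows of some genes, 17.8% held the core and 32.7% the GC box. Neither window held the full cAMP response element (TGACGTCA, which contains the core, 1.55% of windows), the AP-1 site (TGANTCA, 6.75%), the TATA box (TATAAA, 12.4%) or the NF-kB site (3.90%). GC content was 70.8% for Sgpp2 and 61.2% for Sgpp1, with 24 CpG in each, against medians of 52.4% and 6 over all windows. RefSeq windows were matched for 9 of the 10 genes, and such matches describe letters only.

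The kinases did not pass the thresholds. Sphk1, a mainly cytosolic kinase that moves to the plasma membrane when activated, was at 9.24, 9.35 and 8.97 in Tg2576 and at 9.02, 9.17 and 8.96 in WT replicates 1 to 3. The upper pair of Tg2576 arrays lay above all WT arrays and the remaining one lay among them. The difference was 0.14 (SE 0.11, interval -0.11 to 0.40). Sphk2, a kinase also found in the nucleus and mitochondria, was at 7.92, 7.90 and 7.78 in Tg2576 and at 8.0, 7.71 and 7.83 in WT. These arrays were interleaved, with a difference of 0.019 (SE 0.095, interval -0.20 to 0.24).

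Sgpl1 encodes the lyase that ends the life of S1P. It was at 8.38, 8.34 and 8.52 in Tg2576 and at 8.43, 8.44 and 8.51 in WT OBs. Tg2576 replicate 3 was the highest and the other Tg2576 arrays the lowest, and the difference was -0.044 (SE 0.080, interval -0.23 to 0.14). Spns2, the S1P exporter of endothelial cells, was at 9.38, 9.33 and 9.15 in Tg2576 and at 9.20, 9.44 and 9.32 in WT OBs. The genotypes overlapped over nearly their whole range, with a difference of -0.031 (SE 0.096, interval -0.25 to 0.19). For both genes the interval ended below the fold threshold of 1.3 (0.38 on the log2 scale) and above that of 0.7 (-0.51).

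Of the receptors, S1pr3 and S1pr1 had the largest differences, and neither passed the thresholds. S1pr3 couples to several classes of G protein and is known from blood vessels and reactive astrocytes. It was at 8.03, 7.95 and 7.84 in Tg2576 and at 7.59, 7.88 and 7.56 in WT OBs. Only WT replicate 2 reached into the Tg2576 range. The difference was 0.26 (SE 0.11, interval 0.023 to 0.50, adjusted p = 0.558 by limma), and without WT replicate 2 it was 0.36. S1pr1, a receptor coupled to inhibitory G proteins that maintains the endothelial barrier and is also found on astrocytes, was at 9.49, 9.58 and 9.47 in Tg2576 and at 9.46, 9.30 and 9.22 in WT OBs. The genotypes did not overlap, although WT replicate 1 lay next to Tg2576 replicate 3. The difference was 0.19 (SE 0.087, interval -0.013 to 0.38, adjusted p = 0.606 by limma).

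S1pr2 and S1pr5 lay close together in both genotypes. S1pr2, a further S1P receptor, was at 7.87, 7.87 and 7.83 in Tg2576 and at 7.77, 7.80 and 7.97 in WT OBs. The Tg2576 arrays lay inside the WT range, with a difference of 0.012 (SE 0.082, interval -0.17 to 0.20). S1pr5, a receptor of oligodendrocytes, was at 7.88, 8.15 and 8.14 in Tg2576 and at 8.08, 8.25 and 8.01 in WT OBs. Tg2576 replicate 1 was the lowest of all, and the difference was -0.053 (SE 0.10, interval -0.29 to 0.18). S1pr4, the remaining S1P receptor gene and not one of the 10, differed by 0.18 (SE 0.097, interval -0.044 to 0.40).

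**Figure D2:**
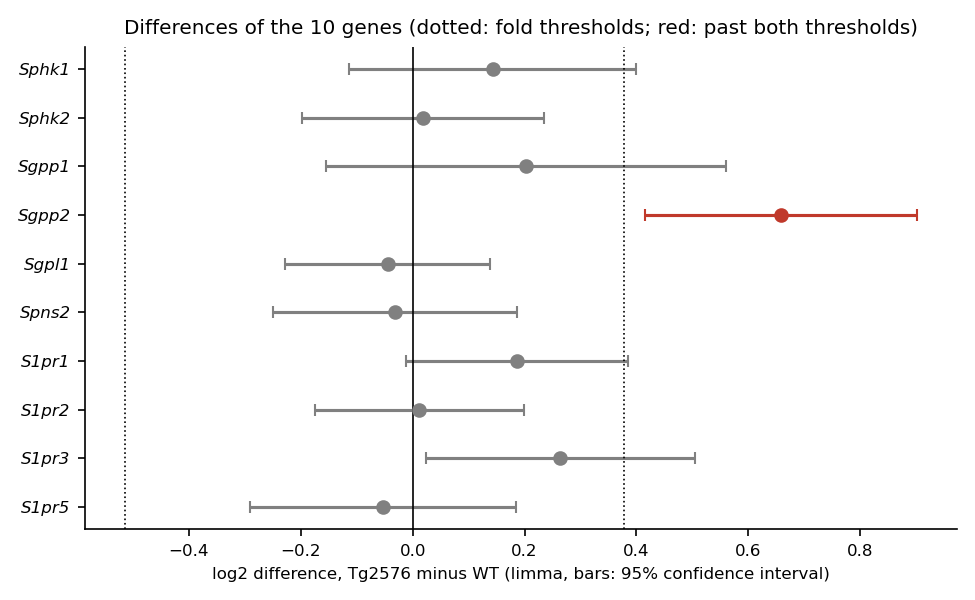
Log2 difference between Tg2576 and WT OBs (horizontal axis) for the 10 genes, with 95% confidence intervals from limma. Dotted lines are the fold thresholds (0.38 and -0.51), and Sgpp2, at 0.66, is the gene past both the fold and the p threshold.

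Beyond the 10 genes, 78 genes were listed by function, of which 70 were measured. Of these 3 were called higher and none lower, with a median difference of 0.055. All 3 were receptors of lysophosphatidic acid (LPA), a related lysolipid, among 5 measured. Lpar1, an LPA receptor found in oligodendrocytes, was at 10.15, 10.30 and 10.33 in Tg2576 and at 9.91, 9.75 and 9.52 in WT OBs, a difference of 0.53 (SE 0.11, limma adjusted p = 0.332). Lpar4, another LPA receptor, was at 8.33, 8.51 and 8.66 against 8.07, 8.17 and 8.10, a difference of 0.39 (SE 0.098, limma adjusted p = 0.381). Its call was lost when Tg2576 replicate 2 or 3, or WT replicate 1 or 3, was left out (0.31 to 0.38), and with all 6 arrays under array weights (0.37), further quantile normalization (0.38) or median centring (0.37). Lpar3 differed by 0.45 (SE 0.088, limma adjusted p = 0.332), and all 6 of its values lay under the negative control medians, where RMA compresses differences. Lpar2 and Lpar6 differed by -0.044 and 0.014. In each of the 3 called receptors all Tg2576 arrays lay above all WT arrays, which largely follows from the call and is no further result. Over all probe sets 14.1% did not overlap, in either direction.

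In the synthesis of ceramide, the precursor of sphingosine, 0 of 15 measured genes passed the thresholds by limma. An unadjusted p under 0.05 was found for 3, all higher, against 8.54% of all probe sets in either direction. Cers2, the ceramide synthase of very long chains, differed by 0.33 (SE 0.12) and passed the thresholds without WT replicate 3 (0.42). Degs1, the desaturase of the last step, differed by 0.28 (SE 0.097). The genotypes did not overlap for either gene. In this list 3 genes lay without overlap on the higher side and 1 on the lower, Sptlc2 (-0.072). Over all probe sets 14.1% did not overlap, in either direction. Of 5 ceramidases, which release sphingosine, none passed the thresholds or had an unadjusted p under 0.05, with differences from -0.13 to 0.21. The smallest p were those of Acer3 (0.21, SE 0.12) and Asah2 (0.14, SE 0.082). Of 11 genes of the sphingomyelin cycle none passed the thresholds, and Smpdl3a, an acid phosphodiesterase related to acid sphingomyelinase, differed by 0.32 (SE 0.095), short of the fold threshold. It passed both thresholds without Tg2576 replicate 3 (0.39). Cert1, the ceramide transfer protein gene, differed by -0.17 (SE 0.087).

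Of 14 glycosphingolipid genes none passed the thresholds, and Ugcg and Ugt8a differed in opposite directions. Both enzymes put a sugar on ceramide, Ugcg glucose and Ugt8a the galactose of myelin lipids. Ugcg was at 7.88, 7.92 and 7.88 in Tg2576 and at 8.12, 8.26 and 8.27 in WT OBs, with all Tg2576 arrays below all WT arrays. Its difference of -0.32 (SE 0.077, adjusted p = 0.370 by limma) lay short of the lower fold threshold. Ugt8a was at 8.75, 8.78 and 8.90 in Tg2576 and at 8.61, 8.16 and 8.48 in WT OBs, with no overlap. Its difference was 0.39 (SE 0.12, adjusted p = 0.473 by limma), just short of the p threshold, and it passed the thresholds with limma-trend, with a filter on a mean of at least 6, with the replicate number as a block and without WT replicate 1 (0.49).

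None of 9 genes of S1P carriers and further breakdown and none of 10 genes of receptor coupling passed the thresholds by limma. In the former, 2 had an unadjusted p under 0.05, Abca1, a lipid exporter gene (0.22, SE 0.086), and Plpp2, a lipid phosphate phosphatase gene (0.32, SE 0.11) whose arrays all lay under the negative control medians. Plpp2 passed the thresholds without Tg2576 replicate 1 (0.41) or WT replicate 1 (0.41). In the latter, 3 had such a p, among them Gna12, a G protein subunit gene (0.20, SE 0.071), and Arrb1, an arrestin gene (0.22, SE 0.080). Over all probe sets 8.54% had such a p, in either direction.

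**Figure D3:**
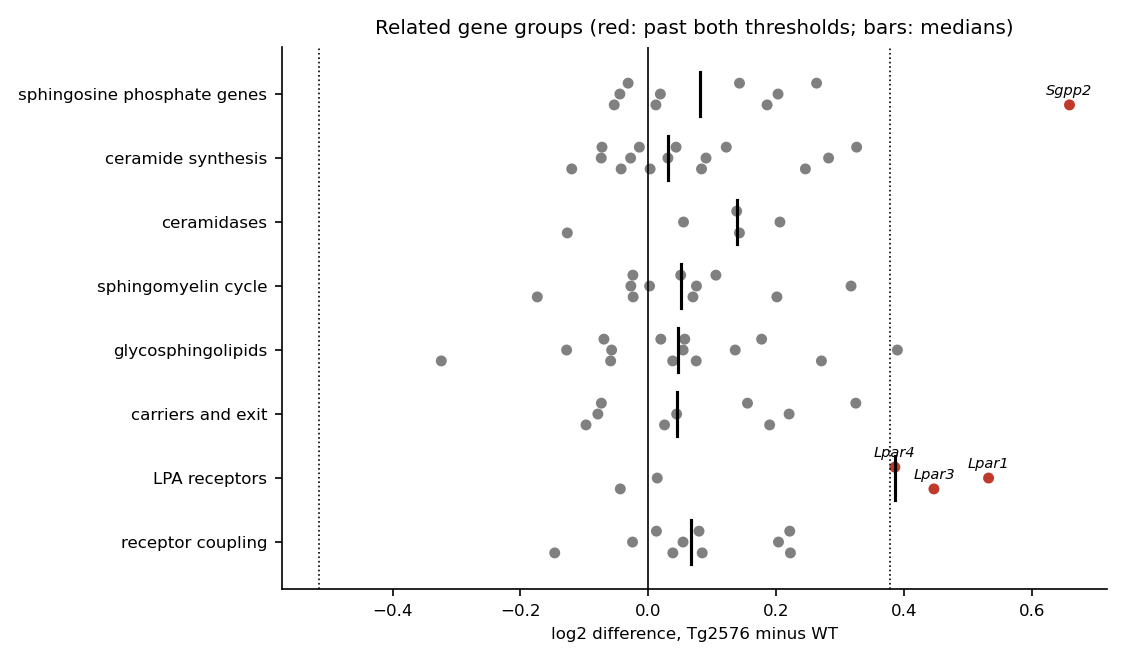
Log2 difference between Tg2576 and WT OBs (horizontal axis) for each measured gene of the S1P group and of 7 related groups. Points are genes, black bars are medians and red points passed both thresholds, which were Sgpp2 (0.66) and the LPA receptors Lpar1 (0.53), Lpar3 (0.45) and Lpar4 (0.39).

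Marker lists of cell types that use S1P were examined in the same arrays, and in bulk tissue a different number of cells of a type and a different amount of RNA per cell cannot be told apart. Of 15 endothelial markers, 1 was called higher, Cldn5, a tight junction gene (0.67, SE 0.13), and 14 lay above 0, with a median of 0.16. Their summed level on the linear scale was 13780 to 15790 in Tg2576 and 12750 to 13590 in WT arrays. Of 10 pericyte and smooth muscle markers, none passed the thresholds and 8 lay above 0, with sums of 5469 to 5977 against 4756 to 5013. Pdgfrb, the receptor gene of pericytes, differed by 0.35 (SE 0.079) and passed both thresholds without Tg2576 replicate 1 (0.38) or WT replicate 2 (0.40). Of 11 astrocyte markers, 1 was called higher, Gfap, the filament gene of reactive astrocytes (0.43, SE 0.11), and the sums were 17420 to 19040 against 16220 to 16490. The call of Gfap ended when Tg2576 replicate 2 or 3, or WT replicate 1 or 3, was left out (0.35 to 0.41). The sums of these 3 lists did not overlap between genotypes, but sums weigh the genes of highest level most, Cldn5 among them. Gene by gene, all Tg2576 arrays lay above all WT arrays for 3 of 15 endothelial and 3 of 10 pericyte and smooth muscle markers. The same held for 5 of 11 astrocyte markers, against 14.1% of all probe sets in either direction. In Tg2576 replicate 2 Cldn5 lay 0.71 above the WT mean. Slc2a1, the endothelial marker of highest level, lay at -0.15 there, and the mean over all 15 at 0.088. The endothelial sum was not computed without Cldn5, so its lack of overlap cannot be read as a trait of the whole list. The part of these lists in the differences of S1pr1 and S1pr3 was not tested.

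Of 11 oligodendrocyte markers measured, 1 was called higher, Cldn11, a tight junction gene of myelin (0.40, SE 0.099), and all 11 lay above 0, with a median of 0.31 and sums of 7415 to 8647 against 5700 to 7212. In the same arrays S1pr5 differed by -0.053, Lpar1 by 0.53 and Ugt8a, itself one of these markers, by 0.39, and the part of this list in those values was not tested. The call of Cldn11 ended when replicate 2 or 3 of either genotype was left out (0.34 to 0.39) and under further quantile normalization (0.37). Of 10 microglial markers none passed the thresholds, with Csf1r, a growth factor receptor gene, at 0.22 (SE 0.092), and the sums were 5980 to 6138 against 5606 to 5876.

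Of 13 sensory neuron markers 5 were called higher, among them Stoml3 (1.00, SE 0.16), Omp, the marker protein gene of mature sensory neurons (0.88, SE 0.17), and Adcy3, the adenylyl cyclase gene of odour transduction (0.53, SE 0.11). The sums were 9912 to 11980 against 6645 to 8362, with Cnga2 under the negative control medians on all arrays. The mean of 11 non-neuronal mucosa markers lay 1.63, -0.28 and 1.60 from the WT mean in Tg2576 replicates 1 to 3, with sums of 2242 to 16710 in Tg2576 and 2394 to 5518 in WT arrays, and with Reg3g under the negative control medians throughout. None of them passed the thresholds, and Bpifb4 had the smallest p (1.92, SE 0.63). In Tg2576 replicate 2, where mucosa markers were low, Sgpp2 lay 0.55 above the WT mean, against 0.58 and 0.85 in replicates 1 and 3. A fit of this array alone against the 3 WT arrays was added after its low mucosa markers were seen, and it assumed that the lone array varies like the others. Sgpp2, for which the group was picked, is given there as a description only (0.55). Lpar1, Lpar3 and Lpar4 differed there by 0.57, 0.36 and 0.40, and Cldn5, Gfap, Dcn and Omp by 0.71, 0.47, 0.64 and 0.79. The calls of these genes were not kept in this fit, and Lpar3 lay short of the fold threshold for a higher call. With a lone Tg2576 array, the fit is given for its differences only. Cldn11 and Tbx21 differed by 0.51 and 0.76, and the immediate early genes Arc and Junb by -0.80 and -0.94.

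Among the remaining lists, 1 of 11 meningeal markers was called higher, Dcn (0.54, SE 0.14), a matrix proteoglycan gene, and 0 of 9 choroid plexus and ependymal markers passed by limma, with Folr1 at 0.30 (SE 0.13). The call of Dcn ended without Tg2576 replicate 1 or 2 or without WT replicate 3 (0.37 to 0.53). The summed levels of both lists overlapped between genotypes, with Col3a1, Kl and Otx2 under the negative control medians on all arrays. Of 12 interneuron markers none passed the thresholds, with Dlx1, a transcription factor gene, at -0.20 (SE 0.075) and sums of 34050 to 35920 against 35290 to 35910. Of 7 mitral and tufted cell markers Tbx21 was called higher (0.48, SE 0.14), with sums of 13690 to 14240 against 11340 to 12360 and Lhx5 under the negative controls. The call of Tbx21 ended without Tg2576 replicate 2 or 3 or without WT replicate 1 or 2 (0.34 to 0.49) and under array weights (0.46). Of 15 immediate early genes 10 were called lower, among them Arc (-0.61, SE 0.13), Fos (-0.56, SE 0.12) and Junb (-0.71, SE 0.15), with sums of 12150 to 15820 against 18940 to 21170 and Ier2 under the negative controls. The part of these lists in the difference of Sgpp2 was not tested.

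**Figure D4:**
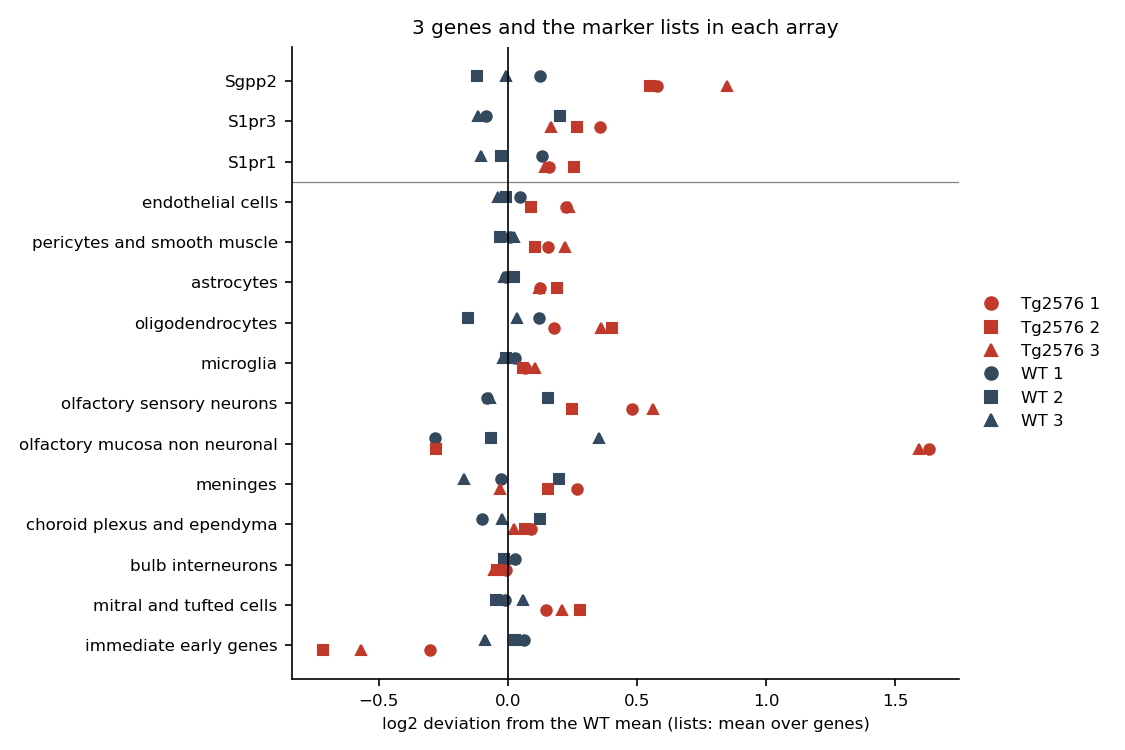
Log2 deviation from the WT mean (horizontal axis) of Sgpp2, S1pr3 and S1pr1 and of the mean of each marker list, in each of 6 arrays, coloured by genotype and shaped by replicate number. In Tg2576 replicates 1 to 3, mucosa markers lay at 1.63, -0.28 and 1.60 and sensory neuron markers at 0.48, 0.25 and 0.56. Sgpp2 lay between 0.55 and 0.85 in all 3, and the part of either list in it was not tested.

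The largest differences of the group were recomputed with other normalizations, with single arrays left out and with Tg2576 replicate 2 as the lone Tg2576 array. Sgpp2 lay between 0.55 and 0.72 in all of them, S1pr3 between 0.20 and 0.36, S1pr1 between 0.13 and 0.26, and Sgpp1 between 0.024 and 0.37. Of these genes only Sgpp2 passed the thresholds in any such setting.

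**Figure D5:**
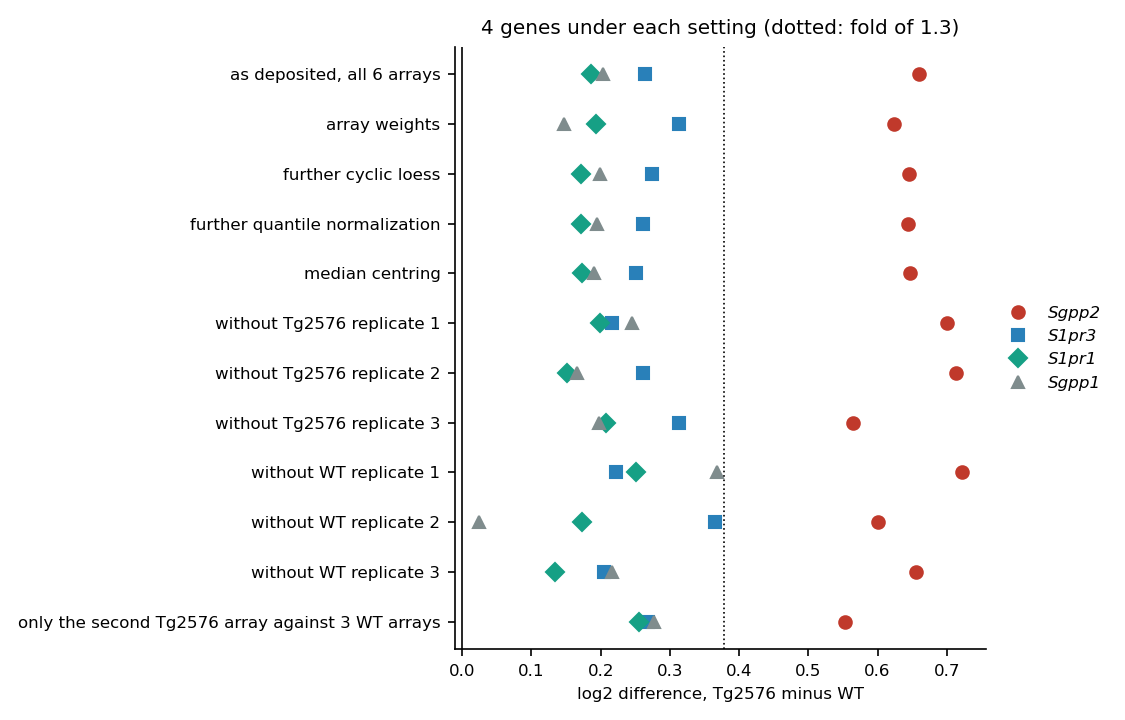
Log2 difference between Tg2576 and WT OBs (horizontal axis) of Sgpp2, S1pr3, S1pr1 and Sgpp1 under each setting that changed the values (vertical axis). The dotted line is a fold of 1.3, and Sgpp2 lay to its right throughout, from 0.55 to 0.72, while the other 3 genes lay to its left.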

How the data were processed

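RNA of OBs from 3 Tg2576 and 3 WT mice was hybridised to Affymetrix Clarion S arrays, each mouse on its own array. The authors deposited log2 values summarised per probe set by RMA, which corrects background, aligns arrays by quantiles and summarises probes. The version of RMA, the arrays normalized together and any scan or extraction batch are not given in the sources used here. RMA compresses differences near background. Depth has no meaning for arrays, and their number limits the precision. Groups and replicate numbers were read from the sample titles.

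Of 28815 probe sets, 63 spike-in, 5222 negative and 1324 positive controls were left out. Of the 22206 tested, 19572 had a gene symbol in the platform table and 2634 had none. Genotype was fitted over all probe sets with limma 3.58.1 in R 4.3.3 (moderated variances, 8.47 degrees of freedom), with Benjamini-Hochberg adjustment over all of them. The p threshold is stated in the methods for the arrays, and the fold limits are those the authors named for their list of changed transcripts. Permuting 3 against 3 mice cannot give an exact p below 0.1, so no such test was run. Sums over marker lists add the values after reversing the log2.

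Members, lists and tests were chosen with earlier results of these data known. The text names the 10 members, S1pr4, App, from each functional list the called genes and the pair of smallest p, and from each marker list up to 3 called genes and the gene of smallest p. Lpar2, Lpar6 and markers under the negative controls were named after their values were seen. The alternatives tried were array weights, limma-trend with robust moderation, further cyclic loess or quantile normalization, median centring, a mean of at least 6, a lower fold threshold of 0.769, no fold threshold, a 5% false discovery rate, a block for the replicate number, and each array left out. Sequences came from the RefSeq promoter table (GRCm38.p6). Figures were drawn in Python 3.11.15 with matplotlib 3.10.9.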

Additional observations from a re-analysis of the deposited data

How the results depend on the processing

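Of 170 comparisons of a member's difference with an alternative, 168 kept their side of the thresholds and moved by less than the SD within genotypes. The exceptions were Sgpp2, no longer called at a 5% false discovery rate, and Sphk1, at 0.31 with Tg2576 replicate 2 as the lone Tg2576 array. The sign changed in 12 of the 170, all for Sphk2, Spns2, S1pr2 or S1pr5, whose differences lay between -0.11 and 0.095. Limma-trend, the filter on the mean, the other fold thresholds, the false discovery rate and the replicate block leave the members' differences as they are. Under these alternatives only a call could change, so their unchanged differences and signs were fixed in advance. Without any single array the count of members called stayed at 1, that of related genes lay between 2 and 4, and that of all probe sets between 169 and 249, with 177 in the full set. Without a fold threshold 468 probe sets and 5 related genes were called. At a 5% false discovery rate limma called 0 probe sets, 0 members and 0 related genes, although 1896 probe sets had an unadjusted p under 0.05. Robust limma-trend called 9 at that rate, of which 1 was a member, Sgpp2. With Tg2576 replicate 2 alone, an alternative added after the data were seen, 1 related gene was called. The deviations of same-numbered arrays showed little correlation (r = 0.036, -0.038 and -0.043 over probe sets). Deviations from a mean of so few arrays are tied to each other, so these values cannot exclude a pairing. The labels do not state one, and whether numbers pair the mice is not known. The replicate block gave 225 called probe sets, 1 member and 4 related genes, and none of the 6 arrays correlated best with the array of its own number. Calls near the negative controls, such as Lpar3, are limited by the low signal.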
